A study of Mus musculus with 41 samples.

Results

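Collagen genes were followed in 41 mammary tumors of mice, of which 29 were epithelial tumors and 12 were spindle cell tumors. The labels give the morphology of the 29 as p53 variable, read here as epithelial, and that of the 12 as p53 spindle-like. The members were the genes of the array whose symbol is Col, a number, a and a second number, with Col17a1 left out, and each gene was read on its probe of highest mean signal. This gave 42 genes of the 30175 on the array, and 38 of them passed the filter on low signal, as did 20913 genes in all. By class, 11 of 11 fibrillar collagens, 5 of 6 chains of basement membrane type IV collagen and 22 of 25 other collagens passed. Col4a3, Col6a5, Col6a6 and Col19a1 did not pass. In the tumor channel these 4 were well above background on 4 to 17 of the 29 epithelial arrays and on 1 or 2 of the 12 spindle cell arrays. They entered no main comparison, only some of the alternatives given at the end.

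All tumors grew from Trp53-null mammary tissue of BALB/c donors placed in the cleared fat pads of wild type BALB/c females, so every group, the low fat controls included, shared the Trp53 deletion in the transplant and a wild type host stroma. The hosts were fed a low fat diet for life (LFD), a high animal fat diet for life (HFD), HFD during puberty and then LFD (HFD-LFD), or LFD during puberty and then HFD (LFD-HFD). The epithelial tumors numbered 8 on LFD, 8 on HFD, 7 on HFD-LFD and 6 on LFD-HFD, with 14 early and 15 late occurring, and the spindle cell tumors numbered 3 on each regimen, with 3 early and 9 late. Onset is that of the labels, and the study called an epithelial tumor early when its latency was under a year. Replicates are separate tumors, and 3 pairs shared a label number, so some may come from the same mouse.

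Collagens are proteins of the extracellular matrix in which 3 chains wind into a triple helix, and the chains of a type are usually products of different genes. Fibrillar types such as I, III and V form the fibrils of connective tissue and are made mainly by fibroblasts. Type IV forms the sheet of the basement membrane under epithelium and around vessels, and type VI forms beaded microfibrils close to cells. In mammary tumors the amount and arrangement of fibrillar collagen are classical features of the stroma.

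Each array compared the Cy5 signal of a tumor with the Cy3 signal of a reference RNA pooled from mouse cell lines, and a level below is the log2 ratio of tumor to reference. The study's methods name Cy5 for the reference while the sample labels name it for the tumor. Tumor was taken as Cy5 since the sample labels give it. The authors' own values ran as Cy5 over Cy3, which does not say which RNA carried Cy5. With the other orientation the sign of every log2 ratio and of every difference in log2 ratio below would turn. Correlations between genes would keep theirs. For 38 arrays the authors' column of the same label matched best, at an r of 0.872 to 0.98, whereas for tumors 40R4A, 57R and 65R the columns were crossed, at an r of 0.759 to 0.837, so results were also computed without those 3. The share of probes well above background in the tumor channel ran from 52.4% to 94.9% on epithelial arrays and from 59.1% to 72.7% on spindle cell arrays. Among the latter M76R had the smallest share and M32L the narrowest interquartile range of log2 ratios, 0.943. Comparisons were also computed without M32L, M76R and M86R, of which M86R was at neither extreme. All 3 were on LFD in puberty. All spindle cell arrays were scanned in a session, on a scanner and with a software version of their own, and the effect of histology and that of the session cannot be told apart. In RNA of whole tumors, fewer cells of a type and less RNA per cell cannot be told apart either.

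Promoters are shown for 4 chains that were called between the histologies below, to let the upstream sequence of fibrillar chains be read beside that of type VI chains. RefSeq promoters of build GRCm38.p6 matched 34 of the 42 members, with 37 promoters in all, and each sequence is the 250 bases before the start of the gene. Capitals mark the letters TATAAA of a TATA box, the letters CCAAT, and the letters GGGCGG of a GC box, searched on both strands, where matches may overlap.
Col1a2 chr6:4505368-4505617, forward strand: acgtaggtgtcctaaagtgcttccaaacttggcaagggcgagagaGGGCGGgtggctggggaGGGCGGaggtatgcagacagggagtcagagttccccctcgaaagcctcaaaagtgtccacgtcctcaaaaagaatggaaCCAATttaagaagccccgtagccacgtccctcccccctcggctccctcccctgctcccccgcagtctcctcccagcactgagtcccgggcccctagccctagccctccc
Col3a1 chr1:45311288-45311537, forward strand: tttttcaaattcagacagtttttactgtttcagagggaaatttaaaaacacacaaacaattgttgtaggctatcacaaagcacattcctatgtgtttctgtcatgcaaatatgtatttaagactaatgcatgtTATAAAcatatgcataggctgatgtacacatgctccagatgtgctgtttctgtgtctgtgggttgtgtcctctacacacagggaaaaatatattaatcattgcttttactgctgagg
Col6a1 chr10:76726045-76726294, reverse strand: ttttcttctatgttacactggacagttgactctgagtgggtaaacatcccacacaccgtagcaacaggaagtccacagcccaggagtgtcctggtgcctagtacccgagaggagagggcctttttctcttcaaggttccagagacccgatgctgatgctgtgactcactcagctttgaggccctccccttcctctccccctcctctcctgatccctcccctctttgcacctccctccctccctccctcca
Col6a2 chr10:76623631-76623880, reverse strand: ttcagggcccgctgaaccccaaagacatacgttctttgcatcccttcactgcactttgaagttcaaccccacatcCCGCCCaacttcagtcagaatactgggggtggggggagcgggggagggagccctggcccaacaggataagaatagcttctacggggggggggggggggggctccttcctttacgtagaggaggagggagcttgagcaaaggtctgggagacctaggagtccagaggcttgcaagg
The Col1a2 promoter held CCAAT once and GGGCGG in 2 copies, the Col3a1 promoter held TATAAA once, the outer of the 2 Col6a2 promoters, printed here, held 1 GGGCGG, read on the opposite strand, and the Col6a1 promoter held none of the 3 motifs. The inner Col6a2 promoter, at chr10:76623405-76623654, held GGGCGG in 3 copies. Over the family, GGGCGG stood in 22 of 37 promoters (59.5%), against 32.7% of all 32851 promoters of that length. CCAAT stood in 12 (32.4%), against 33.8%, and TATAAA in 4 (10.8%), against 12.4%. A match is a description of the letters and not of a bound site.

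Levels were first set against the reference. The mean level lay below the reference in 29 of the 38 members in epithelial tumors and also in 29 in spindle cell tumors. Among the fibrillar collagens this held for 11 of 11 in epithelial tumors, and for 10 of 11 in spindle cell tumors, where Col5a3 lay above. The median of the mean levels was -2.69 for fibrillar members in epithelial tumors and -1.74 in spindle cell tumors. For type IV it was -1.0 and -0.74, and for the other types -0.33 and -1.0. The SD over tumors was larger in spindle cell than in epithelial tumors for 9 of 11 fibrillar members, 19 of 22 other members and 3 of 5 type IV members, and for 44.8% of all genes tested. The median SD was 1.23 beside 0.92 for fibrillar members and 1.08 beside 0.86 for other members, but 0.62 beside 1.0 for type IV, where Col4a1 and Col4a2 spread more among epithelial tumors.

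The first comparison asked how the spindle cell tumors differed from the epithelial tumors. Of the chains of stromal fibrils, Col1a1, Col1a2, Col3a1, Col5a1 and Col5a3 were higher in spindle cell tumors, as were Col6a1, Col6a2 and Col6a3 of type VI, while Col9a3 and Col22a1 were lower. No type IV chain was called. Of the 38 members, 8 were higher and 2 were lower at an adjusted p under 0.05 (limma, Benjamini-Hochberg over all genes tested). Of all genes tested, 7.92% were higher and 12.2% were lower. By class, 5 of 11 fibrillar members, 0 of 5 type IV members and 5 of 22 other members were called. The median difference was 1.15 for fibrillar members, -0.16 for type IV and 0.04 for the other types, beside -0.07 over all genes.

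**Figure D1:**
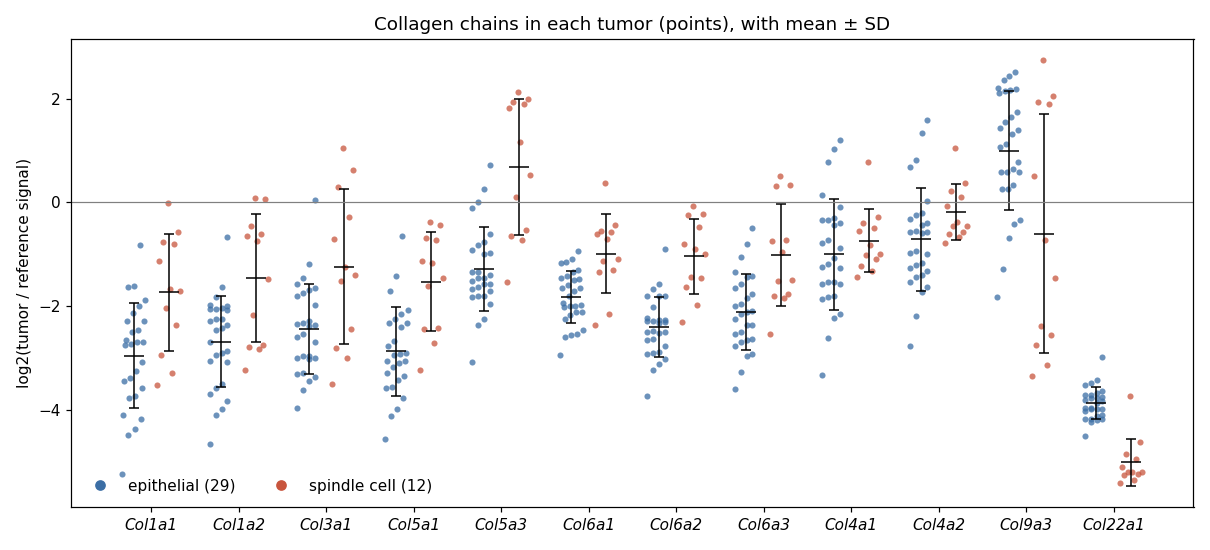
Log2 ratio of tumor to reference signal (vertical axis) for 12 collagen genes (horizontal axis) in 29 epithelial (blue) and 12 spindle cell (red) tumors. Each point is a tumor, and bars give the mean and SD of a histology. The spindle cell points of Col5a3, Col6a1 and Col6a2 reached above the highest epithelial point in 6 tumors each, while those of Col4a1 and Col4a2 lay within the epithelial range.

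Type I collagen, the main fibril of bone, skin and tumor stroma, is built from the Col1a1 and Col1a2 chains. Col1a1 ran from -5.24 through a median of -2.74 to -0.82 in epithelial tumors and from -3.53 through -1.70 to -0.01 in spindle cell tumors. The groups overlapped, with 4 of 12 spindle cell tumors above every epithelial tumor and 9 of 12 above the epithelial median. The means were -2.96 ± 1.02 (SD, n = 27) and -1.74 ± 1.13 (n = 12), a difference in log2 ratio of 1.22 ± 0.35 (SE), or 2.33-fold (limma, adjusted p = 0.0128). Col1a2 ran from -4.67 through -2.44 to -0.67 in epithelial tumors and from -3.23 through -1.12 to 0.08 in spindle cell tumors, where 5 tumors lay above every epithelial tumor. Its difference was 1.22 ± 0.33 (adjusted p = 0.00804). Both chains of type I thus rose, each by 1.22.

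Col3a1, the chain of type III collagen that mixes with type I in pliable tissues, ran from -3.96 through -2.46 to 0.05 in epithelial tumors and from -3.51 through -1.32 to 1.04 in spindle cell tumors. Its spindle cell values covered almost the whole epithelial range and went beyond it in 3 tumors. The difference was 1.20 ± 0.36 (adjusted p = 0.0166). The calls of Col1a1, Col1a2 and Col3a1 depended on which tumors were compared, and that of Col3a1 was also lost in the authors' matrix, with a difference of 1.15 (adjusted p = 0.0555). Without the spindle cell tumors M32L, M76R and M86R, the differences were 0.94 (adjusted p = 0.0801), 0.85 (adjusted p = 0.0803) and 0.68 (adjusted p = 0.176). Among late tumors alone they were 1.17 (adjusted p = 0.115), 1.1 (adjusted p = 0.124) and 1.11 (adjusted p = 0.158).

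Type V collagen nucleates fibrils and sets their width, and Col5a3 is its least widespread chain. Col5a3 ran from -3.09 through -1.47 to 0.71 in epithelial tumors and from -1.54 through 0.84 to 2.13 in spindle cell tumors. In 6 of 12 spindle cell tumors it lay above every epithelial tumor, and in 11 above the epithelial median. The means were -1.29 ± 0.82 (SD, n = 28) and 0.68 ± 1.31 (n = 12), and the difference of 1.97 ± 0.33, or 3.92-fold, was the largest rise of the family (adjusted p = 4.32e-05). Col5a1 ran from -4.57 through -2.95 to -0.66 and from -3.23 through -1.31 to -0.38, a difference of 1.34 ± 0.30 (adjusted p = 0.00149). Col5a2 missed the threshold, with means of -2.40 ± 0.52 (n = 28) and -1.96 ± 1.06 (n = 12) and a difference of 0.44 ± 0.24 (adjusted p = 0.205). Among the remaining fibrillar members, Col24a1 had a difference of 1.15 (adjusted p = 0.0887) and Col27a1 one of 0.25 (adjusted p = 0.64).

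Type VI chains were the clearest group outside the fibrillar class. Col6a2 ran from -3.74 through -2.41 to -0.91 in epithelial tumors and from -2.31 through -0.95 to -0.07 in spindle cell tumors. All 12 spindle cell tumors lay above the epithelial median and 6 above every epithelial tumor. The difference was 1.37 ± 0.21, or 2.58-fold (adjusted p = 1.49e-05), and the second probe of the gene gave 0.93 (adjusted p = 0.0186). Col6a1, which is assembled with Col6a2 in the same molecule, ran from -2.95 through -1.81 to -0.95 and from -2.37 through -0.90 to 0.38, a difference of 0.84 ± 0.20 (adjusted p = 0.00258). The long chain Col6a3 ran from -3.60 through -2.14 to -0.50 and from -2.55 through -1.23 to 0.50, a difference of 1.1 ± 0.27 (adjusted p = 0.00412). The fourth chain tested, Col6a4, had a difference of -0.12 (adjusted p = 0.901). Col6a1 missed the threshold in the authors' matrix and among late tumors alone, where its difference was 0.74 (adjusted p = 0.0904).

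For the 8 members that rose, the difference was larger in the tumor channel than in the reference channel. Between spindle cell and epithelial arrays, the mean log2 signal of the tumor channel differed by 0.73 for Col6a1 up to 1.91 for Col5a3. That of the reference channel, which held the same RNA on every array, differed by -0.27 for Col6a2 up to 0.21 for Col1a1. No probe of a member was saturated.

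None of the 5 type IV members was called, where 20.2% of all genes were, and no test compared the classes. Col4a1, a chain of every basement membrane, ran from -3.34 through -1.14 to 1.20 in epithelial tumors and from -1.44 through -0.91 to 0.78 in spindle cell tumors, so the spindle cell values lay within the epithelial range. The means were -1.0 ± 1.07 (SD, n = 28) and -0.74 ± 0.61 (n = 12), a difference of 0.26 ± 0.32 (adjusted p = 0.598). Its partner Col4a2 had means of -0.72 ± 0.99 and -0.19 ± 0.54, a difference of 0.53 ± 0.30 (adjusted p = 0.213). Col4a5 and Col4a6, chains of specialised epithelial basement membranes, had differences of -0.57 ± 0.38 (adjusted p = 0.305) and -1.25 ± 0.60 (adjusted p = 0.138), and Col4a4 had one of -0.16 ± 0.18 (adjusted p = 0.575). The Col4a6 probe was well above background on 27 of 29 epithelial and 6 of 12 spindle cell arrays, and its second probe gave a difference of 0.03 (adjusted p = 0.924). Other proteins of the basement membrane moved both ways, with 3 of 15 higher and 3 lower. Hspg2, which encodes perlecan, rose by 1.43 (adjusted p = 0.000632), whereas the laminin chains Lama1 and Lama5 fell by 1.39 (adjusted p = 0.0303) and by 1.15 (adjusted p = 0.00161).

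**Figure D2:**
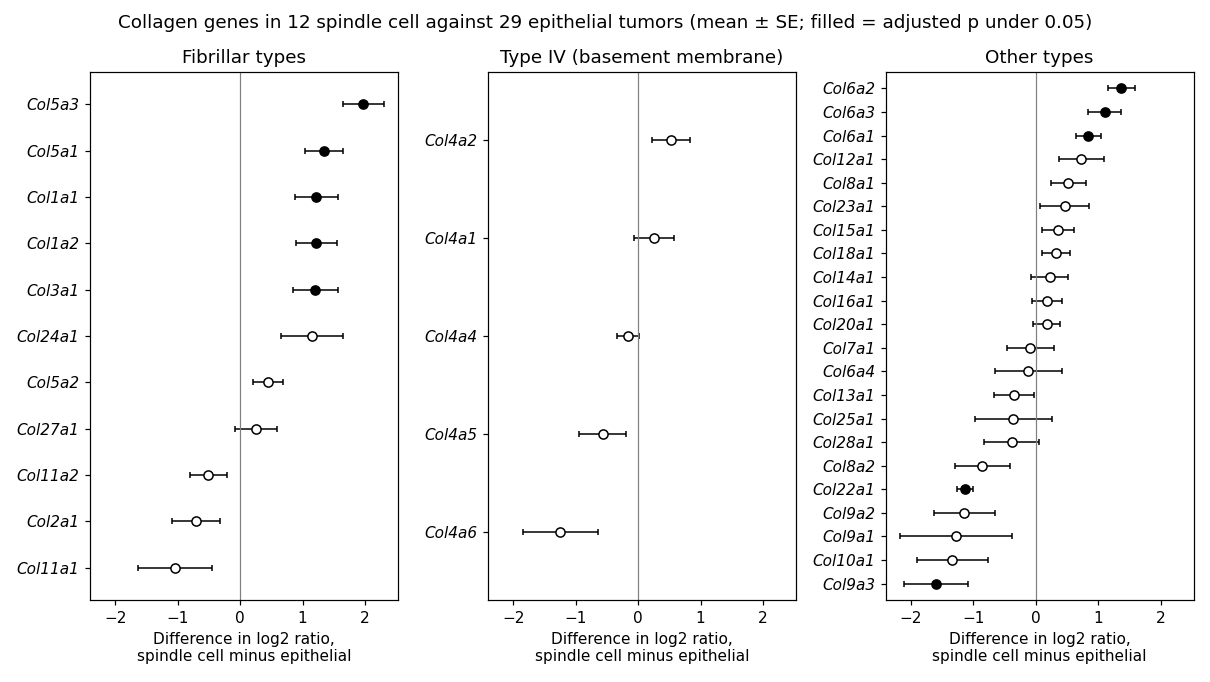
Difference in log2 ratio between 12 spindle cell and 29 epithelial tumors (horizontal axis, spindle cell minus epithelial) for the 38 collagen genes that passed the filter, by class. Points are means with SE, and filled points had an adjusted p under 0.05. The 8 filled points to the right of 0 belong to types I, III, V and VI, and the 2 to the left are Col22a1 and Col9a3.

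Among collagens of cartilage, types II, IX, X and XI, 1 of 7 tested members was called lower, close to the share of all genes. The 7 were grouped after their values were seen, and their differences ran from -1.60 to -0.51 with a median of -1.15. The second probe of Col9a1 gave 0.03 (adjusted p = 0.946). The member called was Col9a3, a chain of the type IX collagen that decorates cartilage fibrils. Col9a3 ran from -1.82 through a median of 1.13 to 2.51 in epithelial tumors and from -3.36 through -1.09 to 2.74 in spindle cell tumors, with 5 of the latter below every epithelial tumor and 1 above. The difference was -1.60 ± 0.52, or 3.03-fold lower (adjusted p = 0.0245). The probe was well above background on 29 of 29 epithelial and 6 of 12 spindle cell arrays, and its reference channel also differed, by -1.18 beside -2.81 in the tumor channel. The call was lost without any of M129L, M33R, M63L, M76R or M84R, with adjusted p from 0.051 to 0.0635, and the difference was -0.46 after normexp and loess (adjusted p = 0.246) and -0.36 in the authors' matrix (adjusted p = 0.569). Markers of cartilage and bone did not move as a group, with 1 of 7 called, Ibsp, lower by 1.30 on the log2 scale, and a median of -0.27.

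Col22a1, a collagen of tissue junctions, was lower by 1.14 ± 0.13 on the log2 scale (adjusted p = 1.94e-08). It ran from -4.51 through -3.92 to -2.98 in epithelial tumors and from -5.42 through -5.20 to -3.74 in spindle cell tumors, 11 of which lay below every epithelial tumor. Its channels split the difference, with -0.73 in the tumor channel and 0.42 in the reference channel, and the second probe of the gene gave -0.01 (adjusted p = 0.993). For 4 members that were not called on the probe used, another probe of the gene passed the threshold. Col14a1, which binds fibrils, had 0.22 (adjusted p = 0.636) on the probe used and 0.89 (adjusted p = 0.00739) on the other. Col15a1, a collagen beside basement membranes, had 0.35 (adjusted p = 0.352) against 0.93 (adjusted p = 0.0423) and 0.91 (adjusted p = 0.0367) on the others. Col16a1, a collagen at fibril surfaces, had 0.17 (adjusted p = 0.645) against 0.59 (adjusted p = 0.0342), and Col8a2, a network-forming chain, had -0.86 (adjusted p = 0.16) against -0.79 (adjusted p = 0.0412). Members of the other class that were not called had adjusted p from 0.0897 for Col9a2 to 0.901 for Col6a4.

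The proteins that make and bind collagen were next compared, by lists, where 7.92% of all genes were higher and 12.2% were lower. Of 17 genes for modification and folding of collagen, 6 rose and 0 fell, among them the lysyl hydroxylases Plod1, by 1.24, and Plod3, by 0.71. Of 12 genes for secretion, cleavage and crosslinking, 6 rose and 0 fell, with a median of 0.96, and all 12 differences lay above 0. They included the crosslinking enzymes Loxl1, by 1.46 (adjusted p = 0.000114), and Lox, by 1.1 (adjusted p = 0.0424), and the propeptide protease Adamts14, by 1.38 (adjusted p = 0.00424). Of 10 fibril binding proteins, 3 rose, led by the proteoglycan Bgn with 1.82 (adjusted p = 1.64e-05). The collagen receptors split, with the uptake receptor Mrc2 higher by 1.38 (adjusted p = 0.00132), the kinase receptor Ddr1 lower by 0.81 on the log2 scale (adjusted p = 0.00854) and the platelet receptor Gp6 lower by 0.97 (adjusted p = 0.0159). The Gp6 probe was well above background on 16 of 29 epithelial arrays and 1 of 12 spindle cell arrays.

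Markers of cell types were compared in the same way, where 7.92% of all genes were higher and 12.2% were lower. Of 7 fibroblast markers, 2 rose, Vim by 1.19 (adjusted p = 0.00482) and Pdgfrb by 0.92 (adjusted p = 0.00437), and the mean level of the list lay between -3.12 and 0.43 in epithelial tumors, against -1.98 and 1.17 in the spindle cell group. Of 6 endothelial markers, 3 rose (Tie1, Pecam1 and Kdr), with a median of 0.71. None of the 7 epithelial markers was called, although 7 of 7 differences lay below 0 and 2 had an unadjusted p under 0.05, and their mean level lay between -0.31 and 4.26 in epithelial tumors, against -2.33 and 1.62 in the spindle cell group. Of the keratins, Krt8 and Krt18 lay above the reference on average in spindle cell tumors, at 1.75 and 2.06, and Krt19, Krt14 and Krt5 below it, at -0.09, -0.45 and -1.76. None of the smooth muscle (median -0.22), adipocyte (-0.55), leukocyte (0.26) or skeletal muscle markers (-0.12) was called. The mean level of the adipocyte markers was uneven in spindle cell tumors, at 2.03 in M32L, 3.55 in M76R and from -5.59 to -3.5 in the others. The part of these cells in the collagen differences was not tested.

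Chains were then followed from tumor to tumor within each histology, over 11 pairs, 8 of 2 collagen chains and 3 of a chain and a cell marker. The chains of type I, Col1a1 and Col1a2, had a Pearson r of 0.95 and a Spearman rho of 0.89 in 27 epithelial tumors (permutation test, adjusted p = 1.8e-05 for both), and 0.92 and 0.83 in 12 spindle cell tumors (permutation test, adjusted p = 0.00018 and 0.00197). Without the 2 tumors farthest from the median of Col1a1, r was 0.91 and 0.88. Col4a1 and Col4a2 start 21 bases apart on opposite strands, and the 2 genes overlap there. They had an r of 0.97 and a rho of 0.93 in epithelial tumors and 0.96 and 0.90 in spindle cell tumors. Without the 2 farthest tumors r was 0.95 and 0.91. For both pairs the tumors formed a line in either histology.

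The same held for other partners. Col6a1 and Col6a2 had an r of 0.84 and a rho of 0.91 in epithelial and 0.88 and 0.90 in spindle cell tumors, with r at 0.78 in each without the 2 farthest. Col4a5 and Col4a6, whose starts lie 1343 bases apart on the X chromosome, had 0.81 and 0.85, and 0.91 and 0.92. Across types I and III, Col1a1 and Col3a1 had 0.91 and 0.93, and 0.94 and 0.92, and within type V, Col5a1 and Col5a2 had 0.83 and 0.80, and 0.76 and 0.73. Col9a1 and Col9a2 were looser in epithelial tumors, at 0.65 and 0.60, beside 0.92 and 0.87 in spindle cell tumors. The adjusted p of these pairs were at most 0.01067 (permutation test).

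Between type I and type IV no relation passed the test. Col1a1 and Col4a1 had an r of 0.18 and a rho of 0.14 in epithelial tumors (permutation test, p = 0.37429 and 0.47139, adjusted p the same) and 0.37 and 0.36 in spindle cell tumors (p = 0.23532 and 0.24707, adjusted p = 0.25885 and 0.27177). Col1a1 followed the fibroblast marker Pdgfrb, with an r of 0.74 and a rho of 0.71 in epithelial and 0.86 and 0.83 in spindle cell tumors (permutation test, adjusted p at most 0.00197), and r was 0.69 and 0.76 without the 2 farthest. Its r with the epithelial marker Epcam was 0.43 (permutation test, adjusted p = 0.03152) with a rho of 0.34 (adjusted p = 0.09394) in epithelial tumors, and 0.25 with a rho of 0.24 in spindle cell tumors (adjusted p = 0.4404 and 0.45725). Col4a1 and the endothelial marker Pecam1 had an r of 0.93 and a rho of 0.83 in spindle cell tumors (permutation test, adjusted p = 0.00022 and 0.00197) and 0.35 for each in epithelial tumors (adjusted p = 0.07909 and 0.08408). The difference between the histologies in these correlations was not tested. Without M32L, M76R and M86R the spindle cell r of Col4a1 and Pecam1 was 0.72, and that of Col1a1 and Col4a1 was 0.04.

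**Figure D3:**
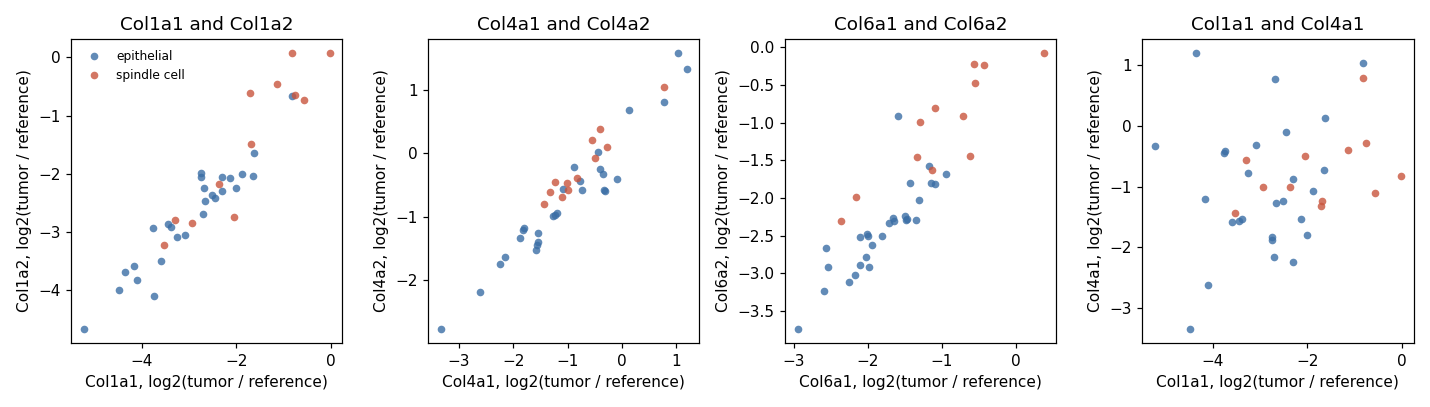
Log2 ratio of a collagen chain against that of a second chain for 4 pairs, each point a tumor, blue epithelial and red spindle cell, with axes fitted to each pair. Col1a1 with Col1a2, Col4a1 with Col4a2 and Col6a1 with Col6a2 lie along a line (r of 0.84 to 0.97 within a histology), while Col1a1 with Col4a1 is scattered (r of 0.18 and 0.37).

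Early and late occurring tumors were compared within each histology. Among epithelial tumors 0 of 38 members were called at an adjusted p under 0.10, where 0.143% of all genes were. At an unadjusted p under 0.05 stood 7 members, 18.4% of them, beside 13.2% of all genes. Col4a4, a chain of specialised basement membranes, had the smallest p. It ran from -2.26 through a median of -1.77 to -1.03 in early tumors and from -2.20 through -1.13 to -0.56 in late tumors, so the groups overlapped, and the difference was -0.61 ± 0.16 (limma, adjusted p = 0.12). With regimen as a covariate Col4a4 was called, the 1 member called in that fit, where 0.521% of all genes were. The next was Col20a1, a little studied collagen, with means of -0.19 ± 0.48 (SD) in early and 0.43 ± 0.63 in late tumors and a difference of -0.62 ± 0.21 (adjusted p = 0.203).

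The main fibrillar and basement membrane chains differed little by onset against their spread. Col1a1 averaged -2.78 ± 0.75 (SD, n = 12) in early and -3.10 ± 1.20 (n = 15) in late epithelial tumors, a difference of 0.32 ± 0.38 (limma, adjusted p = 0.739). The differences were 0.36 ± 0.32 for Col1a2 (adjusted p = 0.644), 0.18 for Col3a1 (adjusted p = 0.853), -0.12 ± 0.39 for Col4a1 (adjusted p = 0.925) and -0.12 ± 0.36 for Col4a2 (adjusted p = 0.919). By class the median difference was 0.18 for fibrillar, -0.12 for type IV and 0.08 for other members, beside 0.01 over all genes.

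Among spindle cell tumors 3 were early and 9 late, and 0 members were called, as were 0% of all genes (limma). The early tumors were M84R and M86R on LFD-HFD and M129L on HFD-LFD, and all tumors on LFD and HFD were late. Onset and regimen were thus not fully separated in spindle cell tumors, here or in the comparisons below that include them. At an unadjusted p under 0.05 stood 0 members and 2.03% of all genes. Col15a1 had the smallest p, with -0.44, 0.55 and 0.94 in the early tumors and from 0.40 through 1.24 to 3.62 in the late tumors, a difference of -1.13 ± 0.55 (limma, adjusted p = 1). Col6a4, a chain related to Col6a3, followed with a difference of 1.03 ± 0.51 (limma, adjusted p = 1). Col1a1 differed by 0.80 ± 0.68, Col1a2 by 1.15 ± 0.71, Col3a1 by 0.68 ± 0.92, Col4a1 by -0.26 ± 0.40 and Col4a2 by -0.15 ± 0.36, each with an adjusted p of 1.

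Whether onset acted differently in the 2 histologies was tested as an interaction. It called 0 members and 0.00478% of all genes, and at an unadjusted p under 0.05 stood 3 members and 3.01% of all genes (limma). Col15a1 had an interaction of -1.70 ± 0.52, Col4a6 one of -2.77 ± 1.29 and Col20a1 one of 0.95 ± 0.47 (limma), each with an adjusted p of 1. For Col1a1, Col1a2, Col3a1, Col4a1 and Col4a2 the interaction lay between -0.14 and 0.79.

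Diet was compared next. Tumors of hosts fed HFD in puberty (HFD and HFD-LFD) were set against those fed LFD in puberty over all 41 tumors. Here 0 members were called beside 0.00956% of all genes, and 0 had an unadjusted p under 0.05 beside 6.95% of all genes (limma). The smallest p belonged to the cartilage chain Col2a1, with a difference of 0.52 ± 0.35 (adjusted p = 0.804), and to Col5a2, with -0.30 ± 0.23 (adjusted p = 0.839). Col1a1 differed by -0.21 (adjusted p = 0.951), Col1a2 by -0.02 (adjusted p = 0.999), Col3a1 by -0.24 (adjusted p = 0.938), Col4a1 by 0.22 (adjusted p = 0.924) and Col4a2 by 0.36 (adjusted p = 0.842). Members of all classes lay between -0.35 and 0.58.

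Among the 4 regimens in epithelial tumors 0 members were called by the F test, where 0.473% of all genes were, and 8 members (21.1%) had an unadjusted p under 0.05 beside 12.9% of all genes. Col6a2 had the smallest p. It averaged -2.83 ± 0.46 (SD, n = 8) on LFD, -1.83 ± 0.47 (n = 7) on HFD, -2.40 ± 0.34 (n = 7) on HFD-LFD and -2.56 ± 0.60 (n = 6) on LFD-HFD, so HFD for life was highest and LFD for life lowest (limma F test, adjusted p = 0.188). Col5a3 had the next smallest p and was likewise highest on HFD, at -0.55 ± 0.89, beside -1.44 ± 0.29 on LFD, -1.63 ± 0.52 on HFD-LFD and -1.55 ± 1.08 on LFD-HFD (adjusted p = 0.328). Col1a1 averaged -2.26 ± 1.0 on HFD, -2.90 ± 0.88 on LFD, -3.27 ± 0.72 on HFD-LFD and -3.37 ± 1.32 on LFD-HFD (adjusted p = 0.525). The HFD means of Col6a2, Col5a3, Col1a1 and Col1a2 lack tumor 60L, whose spots were dropped. Its Col6a1 was the lowest on HFD, at -2.46 beside -1.65 to -0.95. The F test gave an adjusted p of 0.342 for Col1a2, 0.586 for Col3a1, 0.8 for Col4a1 and 0.623 for Col4a2.

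The single contrasts between regimens called 0 members in each. Of all genes they called 0% for HFD against LFD, 1.25% for HFD-LFD against LFD, 0% for LFD-HFD against LFD, 0.0287% for HFD-LFD against HFD, 0.263% for LFD-HFD against HFD and 0% for LFD-HFD against HFD-LFD. Between HFD and LFD the smallest p belonged to Col6a2, with a difference of 1.0 ± 0.24 (limma, adjusted p = 0.357). Of the fibrillar differences 10 of 11 lay above 0, with a median of 0.64. Over all genes 9804 of 20913 lay above 0, with a median of -0.02. Several fibrillar chains ran together from tumor to tumor, as shown above, so this is not a count of independent chains. Against the same HFD tumors, the median of fibrillar differences was -0.71 for HFD-LFD and -0.78 for LFD-HFD. These contrasts share tumors and are not independent. Within epithelial tumors, HFD in puberty and HFD in adult life each called 0 members and 0% of all genes, with Col6a2 at 0.58 (adjusted p = 0.303) and 0.42 (adjusted p = 0.964).

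**Figure D4:**
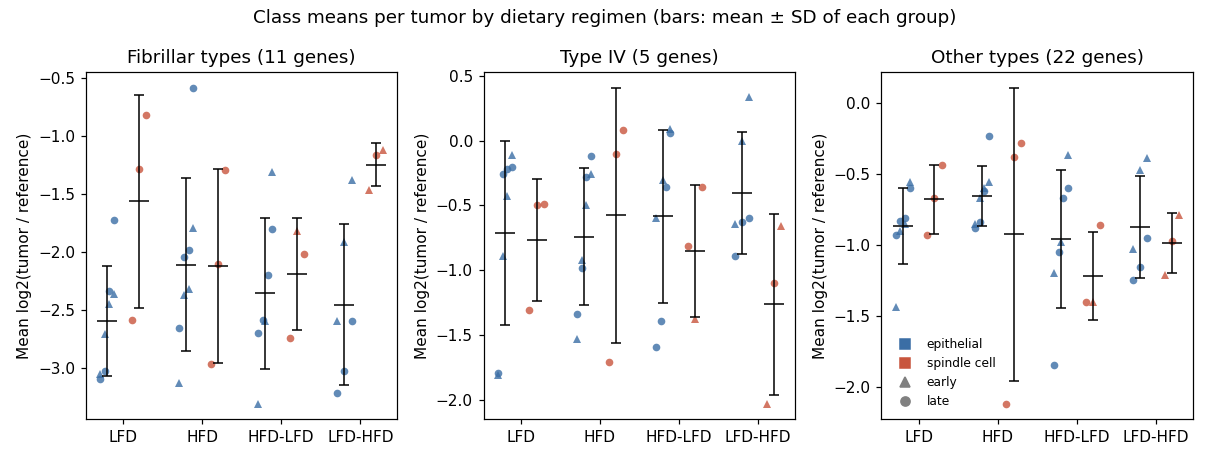
Mean log2 ratio over the members of a class in each tumor (vertical axis, fitted to each panel) by dietary regimen, blue epithelial and red spindle cell, triangles early and circles late, with bars for the mean and SD of each group. Where a spot was dropped, the mean is over the members that remain. In 60L (HFD, fibrillar mean -3.13) no chain of types I, II, III or V had a value, and neither had Col4a1 or Col4a2. Fibrillar means of spindle cell tumors ran from -2.97 (M63L, HFD) to -0.82 (M33R, LFD), and the 3 on LFD-HFD lay together at -1.12, -1.16 and -1.46, while the type IV means of the groups overlap throughout.

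Among the regimens in spindle cell tumors, with 3 tumors each, 0 members and 0% of all genes were called, and 3 members had an unadjusted p under 0.05 beside 3.74% of all genes (limma F test). Col6a4 had the smallest p (adjusted p = 0.977), with means of -3.35 on LFD, -4.03 on HFD, -3.72 on HFD-LFD and -2.14 on LFD-HFD. Col5a2 followed (adjusted p = 0.977), with -1.17 ± 1.07 on LFD and -1.26 ± 0.59 on LFD-HFD, beside -2.56 ± 1.12 on HFD and -2.84 ± 0.28 on HFD-LFD. Col1a1 averaged -1.24 on LFD and -0.84 on LFD-HFD, beside -2.45 on HFD and -2.43 on HFD-LFD. Col1a1, Col1a2, Col3a1, Col4a1 and Col4a2 each had an adjusted p of 0.977.

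The effect of pubertal HFD was then compared between the histologies as an interaction. Here 2 members were called, Col5a2 and Col14a1, at an adjusted p under 0.10, where 0.445% of all genes were, and 11 of 38 members (28.9%) had an unadjusted p under 0.05 beside 12.2% of all genes (limma). In both genes the value with pubertal HFD was the lower in spindle cell tumors and not in epithelial tumors. Col5a2 averaged -2.50 ± 0.57 (SD, n = 14) with pubertal LFD and -2.29 ± 0.47 (n = 14) with pubertal HFD in epithelial tumors, and -1.21 ± 0.77 (n = 6) and -2.70 ± 0.75 (n = 6) in spindle cell tumors. The interaction was -1.70 ± 0.41 (limma, adjusted p = 0.0676).

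In the spindle cell tumors with pubertal LFD, Col5a2 was -0.27 in M33R, -0.84 in M84R, -0.89 in M32L, -1.0 in M76R, -1.93 in M86R and -2.35 in M18L. With pubertal HFD it was -1.66 in M54R, -2.22 in M56LA, -2.55 in M118R, -2.89 in M129L, -3.10 in M128L and -3.82 in M63L. The groups overlapped only through M86R, M18L, M54R and M56LA. Col14a1, a collagen that binds to the surface of fibrils, averaged -2.76 ± 0.41 and -2.46 ± 0.61 in epithelial tumors and -1.52 ± 1.45 and -3.25 ± 0.76 in spindle cell tumors, an interaction of -2.04 ± 0.51 (limma, adjusted p = 0.0804). With pubertal LFD it was 0.37 in M32L and 0.19 in M76R, beside -1.77 in M33R, -2.40 in M84R, -2.45 in M86R and -3.03 in M18L. With pubertal HFD it ran from -4.21 in M63L to -2.43 in M129L. M32L and M76R alone lay above the reference.

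Those 2 tumors also stood apart in fat cell markers. The mean level of 4 adipocyte markers was 2.03 in M32L and 3.55 in M76R, and from -5.59 to -3.50 in the other 10 spindle cell tumors. The 4 markers had an unadjusted p under 0.05 in this interaction, beside 12.2% of all genes, with a median of -3.34. Of them 0 were called, where 0.445% of all genes were. The mean level of 7 fibroblast markers in spindle cell tumors lay between -1.44 and 1.17 with pubertal LFD and between -1.98 and 0.24 with pubertal HFD, and 2 of the 7 were called, Fap at -1.71 (adjusted p = 0.0441) and Dpt at -2.62 (adjusted p = 0.0448). The collagen receptor subunits Itga11 and Itga1 were called too, at -2.88 (adjusted p = 0.0448) and -1.41 (adjusted p = 0.0525), as was the pericyte marker Cspg4 at -1.58 (adjusted p = 0.0699). Of the 6 smooth muscle and pericyte markers, 4 had an unadjusted p under 0.05, with a median of -1.34, and their mean level in spindle cell tumors lay between -1.83 and -0.49 with pubertal LFD and between -2.78 and -1.65 with pubertal HFD. The part of these cells in the result was not tested.

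The other chains of stromal fibrils lay on the same side without being called. Col3a1 had an interaction of -2.25 ± 0.65 (limma, adjusted p = 0.152), Col1a2 one of -2.0 ± 0.60 (adjusted p = 0.178) and Col1a1 one of -1.70 ± 0.67 (adjusted p = 0.288). Col4a1 had -1.09 (adjusted p = 0.489) and Col4a2 -1.01 (adjusted p = 0.483). The type IV chains Col4a6 and Col4a5 lay on the other side, at 2.62 ± 1.16 (adjusted p = 0.341) and 1.64 ± 0.74 (adjusted p = 0.35). Both were among the 11 members with an unadjusted p under 0.05. Of the fibrillar members, which are not independent of one another, 10 of 11 lay below 0. Their median was -1.03, beside 0.07 over all genes.

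Both calls were lost under several alternatives. With slide as a random block the interaction was -1.61 for Col5a2 (adjusted p = 0.114) and -2.01 for Col14a1 (adjusted p = 0.13), and with 1 tumor per shared label number it was -1.80 (adjusted p = 0.111) and -2.22 (adjusted p = 0.102). Without M32L, M76R and M86R, which all had pubertal LFD, the interaction was -1.76 for Col5a2 (adjusted p = 0.206) and -1.16 for Col14a1 (adjusted p = 0.52). Leaving out 1 spindle cell tumor gave 0 called members without M128L, M32L, M33R, M63L or M76R, 1 without M118R, M129L or M84R, 2 without M54R, M56LA or M86R and 6 without M18L.

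**Figure D5:**
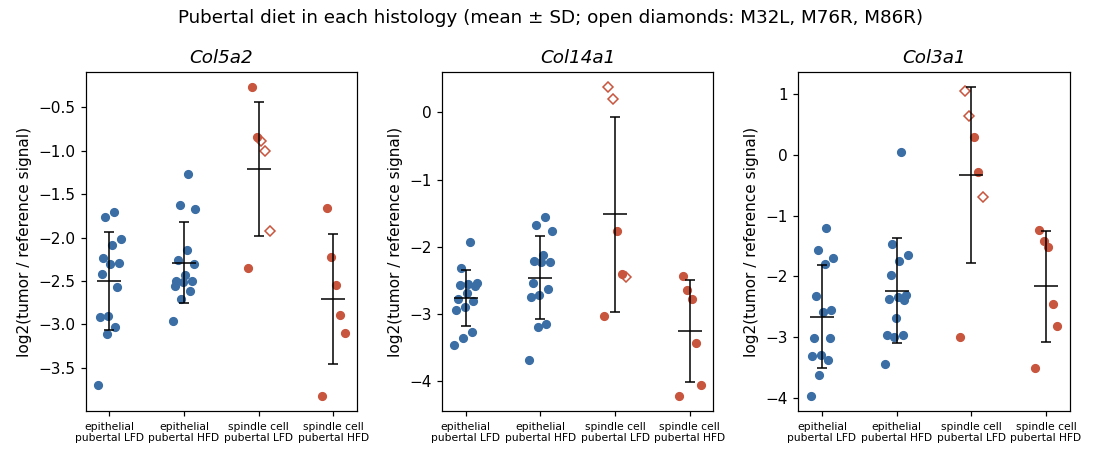
Log2 ratio of Col5a2, Col14a1 and Col3a1 (vertical axis, fitted to each panel) by histology and pubertal diet, each point a tumor, with bars for the mean and SD of a group. Open diamonds are the spindle cell tumors M32L, M76R and M86R. The mean of Col5a2 was -1.21 with pubertal LFD and -2.70 with pubertal HFD in spindle cell tumors, beside -2.50 and -2.29 in epithelial tumors.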

How the data were processed

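The authors hybridised tumor and reference RNA to 2-colour Agilent arrays and deposited scanner output, whose processed signals are intensity values already corrected for background and dye by Feature Extraction (11.0.1.1 on epithelial and 10.5.1.1 on spindle cell arrays per the file headers, 8.5.1.1 per the submitters' notes), and a matrix of log2 ratios that the authors normalized, with column medians of -0.039 to 0.05. Its scale and direction matched log2 of Cy5 over Cy3, and its centring is not given in the sources used here. Here log2 of Cy5 over Cy3 processed signal was taken. Outlier spots were dropped, spots of a probe were averaged, and probes with a signal above 10 in both channels on 80% of arrays were kept (27307 of 39429). Where a spot was dropped, n is smaller. Of the probes, 2894 were named differently in the 2 design files, 1 of them a probe of a member. Comparisons were fitted with limma 3.58.1 in R 4.3.3 over all genes, with Benjamini-Hochberg adjusted p under 0.05 for histology and under 0.10 otherwise. The study's SAM statistic was not run. Scripts were tested on simulated data. Precision is limited by the number of arrays.

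Members, lists and tests were chosen with earlier results of these data known. Values are given in full for members called in a comparison, for the 2 of smallest p where none was called, and for Col1a1, Col1a2, Col3a1, Col4a1 and Col4a2. Of the gene lists, up to 3 called genes of largest difference are named, besides markers. Alternatives were background correction and normalization, centring, the authors' matrix, filters, probe choice, outlier spots, thresholds, slide as a random block, covariates and subsets of tumors.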

Additional observations from a re-analysis of the deposited data

Results flagged for a closer look

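In 68 sets of epithelial tumors of a regimen, each for a member named above or a class mean, 6 held a tumor far from the others, where chance gives about 1 in 20. Col22a1 was -2.98 in 13L on LFD, beside -4.19 to -3.77 in the 7 others. Col5a1 was -1.72 in 1 early occurring tumor on HFD-LFD, beside -3.78 to -2.95 in the 6 others. On LFD, tumor 17R stood apart for Col5a3, at -0.82 beside -1.80 to -1.34, and for the mean of the other collagens, at -1.44 beside -0.93 to -0.56. On HFD, Col6a1 was -2.46 in 60L, beside -1.65 to -0.95, and Col9a3 was -1.29 in 62L, beside 0.59 to 2.20. Tumor 60L also had the largest share of outlier spots, 22%.

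By the interaction test, the difference made by pubertal HFD was not the same in both histologies for Col14a1 (-2.04) and Col5a2 (-1.70).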

How the results depend on the processing

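Between the histologies, Col5a1, Col5a3, Col6a2, Col6a3 and Col22a1 were called in each of 14 alternatives, Col1a1, Col1a2 and Col6a1 in 12, Col3a1 in 11 and Col9a3 in 9. Called members numbered 7 to 13, except 6 among late tumors alone, and 9 to 13 with a spindle cell tumor left out. Without the filter, Col6a6 and Col19a1, which had not passed it, were called too, where 26.2% of all genes were. Over all genes the 1657 higher and 2561 lower became 4261 and 3631 without the filter and 2168 and 2045 in the authors' matrix, with 2348 to 7892 in all over the alternatives. Spindle cell against epithelial differences had no within-session value.

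For early against late epithelial tumors, regimen as a covariate called 1 member in place of 0. Reversed in sign, never called, were Col1a2 (-0.02), Col4a1 (0.24) and Col4a2 (0.14) in the authors' matrix, Col4a1 (0.04) with outlier spots kept, and Col4a1 (0.09) and Col4a2 (0.07) without 40R4A, 57R and 65R. For pubertal HFD over all tumors, Col1a2 was 0.03 with 1 tumor per shared label number, and without M32L, M76R and M86R Col1a1 was 0.07, Col1a2 0.33 and Col3a1 0.16.

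The interaction of pubertal HFD with histology called 12 members after normexp and loess, where 11.3% of all genes were called, 1 without 40R4A, 57R and 65R, and 0 with outlier spots kept, a threshold of 0.05, slide as a random block, 1 tumor per shared label number, or without M32L, M76R and M86R. With a spindle cell tumor left out it called 0 to 6 members and 6 to 494 genes in all. The cause was not tested. Correlations moved to 0.93 (Col6a1 with Col6a2, epithelial) without the second scan session. Without M32L, M76R and M86R the spindle cell values moved to 0.98 (Col1a1 with Col3a1), 0.88 (Col4a1 with Col4a2), 0.04 (Col1a1 with Col4a1), 0.96 (Col1a1 with Pdgfrb) and 0.72 (Col4a1 with Pecam1). Leaving out single tumors between the histologies and in the interaction, leaving out the second session, and the alternatives for correlations were chosen after seeing the data. No paired analysis was possible because replicate numbers only name tumors.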
